A study of Rattus norvegicus with 12 samples.

Results

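The 65 genes described here encode the guidance ligands semaphorins, ephrins, Slits and netrins and their receptors, the plexins, Eph kinases, Robos and Unc5 proteins. They are the rows of the rat heart count tables whose gene names match these families (Sema3 to Sema7, Plxna to Plxnd, Efna and Efnb, Epha and Ephb, Slit1 to Slit3, Robo1 to Robo4, Ntn followed by a digit, and Unc5a to Unc5d) and that hold 10 or more counts summed over the 12 libraries. They are 65 of the 34322 genes in the tables, of which 22656 reach the same minimum. By class there are 20 semaphorins, 9 plexins, 8 ephrins, 14 Eph receptors, 3 Slits, 3 Robos, 4 netrins and 4 Unc5 receptors. All 65 rows with matching names reached the minimum. No row is named Robo4, so that gene is not covered here. Hearts came from wild-type male Sprague-Dawley rats that received sorafenib, a cancer drug that inhibits RAF and receptor tyrosine kinases such as the VEGF receptors, by gavage at 50 mg per kg once daily, or the same volume of deionized water. Tissue was taken after 14 or 28 days, which gives 4 groups of 3 libraries: sorafenib day 14, water day 14, sorafenib day 28 and water day 28. Replicates carry the numbers of their sample titles. The labels do not tie each library to its own animal, and the p-values therefore reflect how these libraries vary, which may be technical.

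Guidance molecules were first described as cues that attract or repel growing axons, and the same proteins steer blood vessels. Secreted class 3 semaphorins act through neuropilins paired with plexins, while most membrane-bound semaphorins bind plexins directly. Ephrins are held in the membrane and bind Eph receptor tyrosine kinases on neighbouring cells, netrins bind Unc5 receptors and Dcc or neogenin, and Slits bind Robos. In the vasculature ephrin-B2 marks arteries and its receptor EphB4 marks veins, Unc5b is a receptor of the leading cells of vascular sprouts, and plexin D1 is the endothelial receptor of semaphorin 3E.

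Total counts were 13746366 to 18534816 per library at day 14 and 16785038 to 26403196 in 5 libraries of day 28. Sorafenib day 28 replicate 3 had only 1036483 counts, so that 1 count equals 0.965 CPM (counts scaled to library size) before normalization. The guidance genes held 27728 to 47852 counts per library in the 11 deep libraries and 2542 in that one, where 52 of the 65 had any count, against 61 to 64 elsewhere. The 8 cardiomyocyte markers looked up as a check of the tissue summed to 91260 to 192900 CPM, with none of them at 0 in any group. These are bulk samples, in which fewer cells of a type and less RNA per cell cannot be told apart.

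Levels between genes are compared as CPM per kilobase of exon, scaled by TMM (trimmed mean of M values), and averaged over all 12 libraries with the SD between them. The highest was Ephb4, the venous Eph receptor, at 30.1 ± 3.55 CPM per kilobase, followed by Plxnb1, the receptor of semaphorin 4D, at 29.5 ± 4.26 and Plxnd1 at 25.1 ± 8.52. The netrins Ntn1 and Ntn4 were next at 20.2 ± 2.70 and 19.8 ± 4.95. Neighbours in this order differed by less than the larger of their SDs. Sema7a, a semaphorin anchored to the membrane by a lipid, was the highest semaphorin per length at 18.2 ± 5.10. The highest members of other families were Plxna2 at 14.1 ± 2.93, Efnb2 at 13.7 ± 2.70, Sema3c at 12.9 ± 4.23, Sema6a at 9.63 ± 2.93, Unc5b at 9.57 ± 2.50 and Sema4d at 7.12 ± 1.28 CPM per kilobase. Lower family leaders were Sema5a (6.16 ± 1.23), Efna1 (4.28 ± 1.02), Slit3 (3.414 ± 1.5), Epha1 (3.07 ± 1.09), Plxnc1 (1.54 ± 0.20) and Robo1 (1.36 ± 0.204), all in CPM per kilobase. At the low end, 9 members with 10 to 69 counts in all 12 libraries together did not pass the filter on low counts and were not tested: Efna3, Epha5, Epha6, Epha8, Epha10, Ntn3, Ntn5, Slit1 and Unc5a. Exons of 10 members, Ntn1, Slit3, Plxnc1, Epha1, Robo3, Efna4 and Sema6c among them, overlap those of another gene, and the counts were made without regard to strand, so reads of such pairs cannot be told apart.

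**Figure D1:**
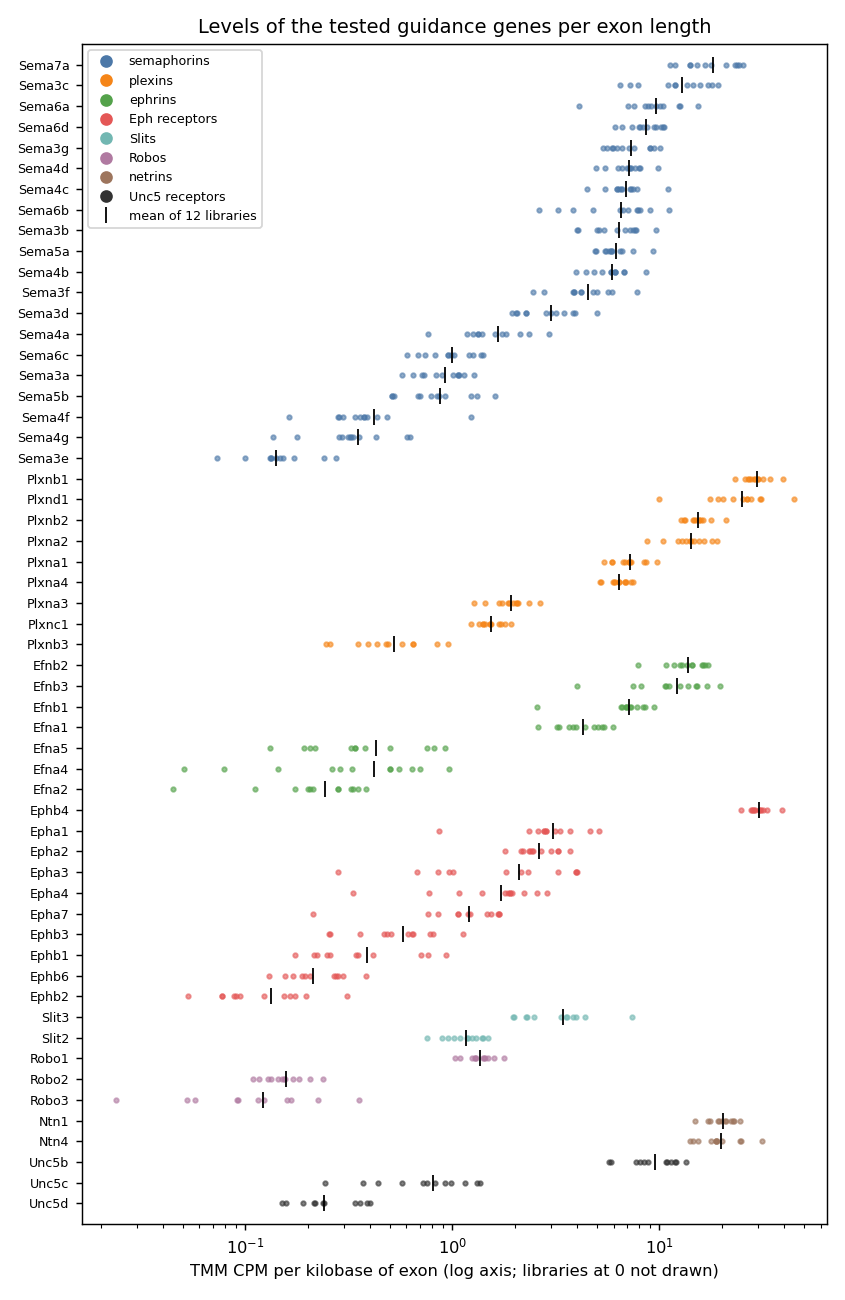
Level of each of the 56 tested guidance genes in CPM per kilobase of exon on a log axis, 1 point per library and a vertical bar at the mean of 12 libraries, grouped by class. Ephb4, Plxnb1 and Plxnd1 lie at the top with means of 30.1, 29.5 and 25.1, and Robo3 lies at the bottom of those tested at 0.122.

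Sorafenib was compared with water in each day, and the effects of both days were averaged with equal weight in a fit of all 12 libraries. In that average 5 of the 56 tested members passed an adjusted p of 0.05, which is 8.93%, against 4.41% of all 18174 genes tested. Lower with sorafenib were Sema7a, the netrin receptors Unc5b and Unc5c, and Plxnd1, which is 7.14% of members against 2.41% of all genes in that direction. Higher was Sema3g, a class 3 semaphorin known from arterial endothelium, which is 1.79% of members against 2.0% of all genes. With 5 calls among 56 genes, these shares are given as a description and are not read as particular to the guidance genes. The log2 fold change was below 0 for 35 of the 56, with a median of -0.13, against 50.8% and a median of -0.01 over all genes. By class, 1 of 20 semaphorins rose and 1 fell, 1 of 9 plexins fell, 2 of 3 Unc5 receptors fell, and 0 of 7 ephrins, 10 Eph receptors, 2 Slits, 3 Robos and 2 netrins passed. Of all 56, 14 had an unadjusted p under 0.05 (25.0%, against 24.3% of all genes).

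**Figure D2:**
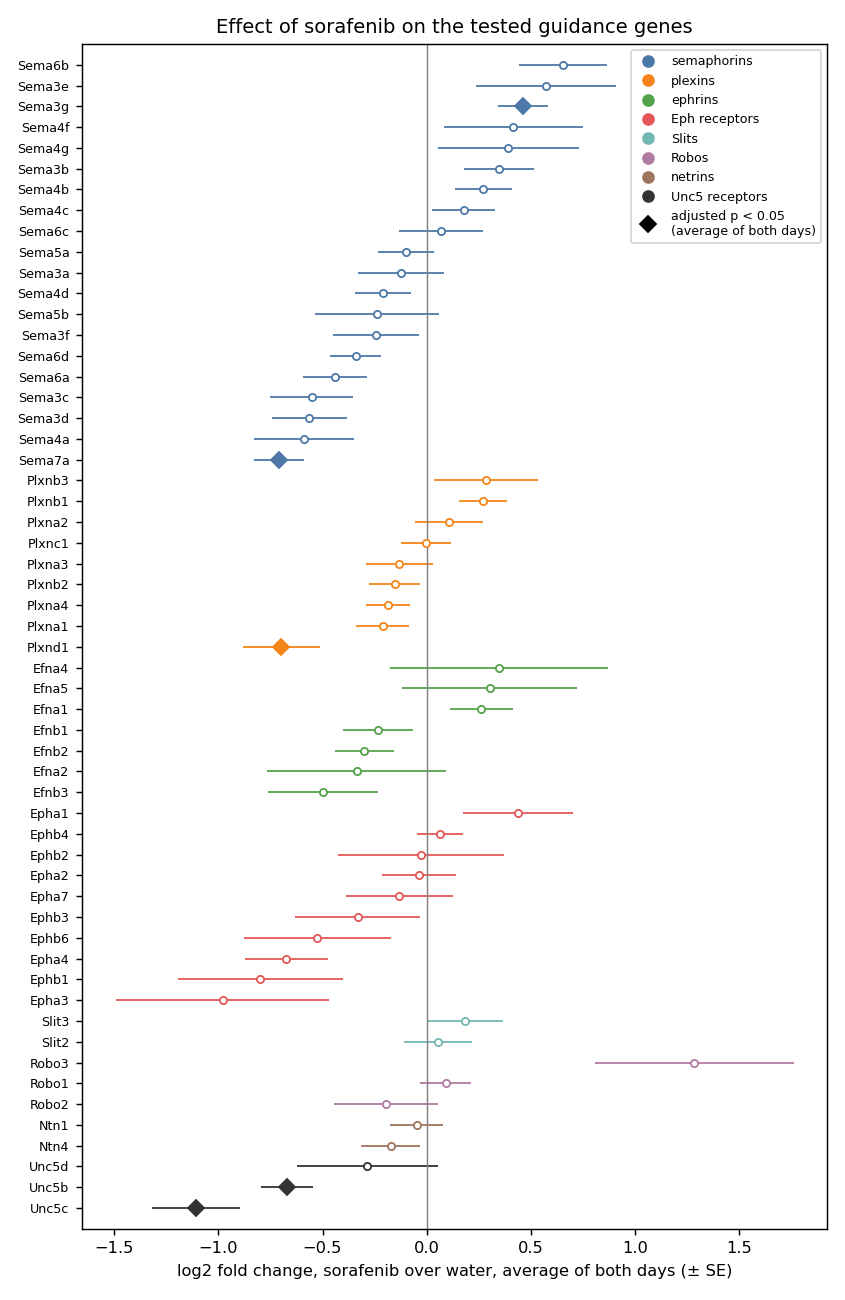
Log2 fold change, sorafenib over water, averaged over both days, for each of the 56 tested guidance genes, with bars of 1 SE, grouped by class. Filled diamonds mark the 5 genes with an adjusted p under 0.05: Sema3g to the right of 0, and Sema7a, Plxnd1, Unc5b and Unc5c to the left.

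The called genes lie apart in the genome. In mRatBN7.2, Sema7a is on chromosome 8 from 58348448 to 58370536, Unc5b on chromosome 20 from 28697726 to 28764474, Unc5c on chromosome 2 from 230180353 to 230535219, Plxnd1 on chromosome 4 from 149002784 to 149043097 and Sema3g on chromosome 16 from 6413589 to 6425221. Counts cover all exons of a gene, and no exon of these 5 overlaps another gene. The 250 bases before the transcription start, read from RefSeq promoter entries of the assembly GRCr8 (50 of the 65 members matched by symbol), are printed 5′ to 3′ to show the region these genes are read from, 3 that fell and the 1 that rose. Capitals mark the Sp1 box (GGGCGG on either strand).
Sema7a promoter (chr8:67244068-67244317, plus strand): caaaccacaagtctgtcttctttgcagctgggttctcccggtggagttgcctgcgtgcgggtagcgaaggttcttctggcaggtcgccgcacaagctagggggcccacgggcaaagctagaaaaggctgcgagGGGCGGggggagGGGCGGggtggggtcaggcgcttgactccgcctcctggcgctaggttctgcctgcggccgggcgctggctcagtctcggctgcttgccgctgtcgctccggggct
Unc5b promoter (chr20:29307271-29307520, minus strand): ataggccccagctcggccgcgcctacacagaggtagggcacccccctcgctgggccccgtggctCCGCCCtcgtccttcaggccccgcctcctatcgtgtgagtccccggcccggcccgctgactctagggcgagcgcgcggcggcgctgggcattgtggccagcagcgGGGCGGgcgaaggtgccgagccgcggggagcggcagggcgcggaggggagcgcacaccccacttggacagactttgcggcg
Plxnd1 promoter (chr4:150715188-150715437, minus strand): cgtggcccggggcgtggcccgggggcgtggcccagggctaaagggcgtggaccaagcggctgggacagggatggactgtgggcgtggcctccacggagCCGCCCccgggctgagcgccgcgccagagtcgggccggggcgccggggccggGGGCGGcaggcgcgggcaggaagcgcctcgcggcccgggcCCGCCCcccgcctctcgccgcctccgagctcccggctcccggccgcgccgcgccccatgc
Sema3g promoter (chr16:6419775-6420024, plus strand): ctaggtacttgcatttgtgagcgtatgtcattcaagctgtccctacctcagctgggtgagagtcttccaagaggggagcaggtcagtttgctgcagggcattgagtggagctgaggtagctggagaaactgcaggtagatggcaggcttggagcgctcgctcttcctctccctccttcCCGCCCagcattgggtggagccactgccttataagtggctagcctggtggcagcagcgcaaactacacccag
The window of Plxnd1 had 83.2% G and C, that of Unc5b 75.2%, that of Sema7a 67.6% and that of Sema3g 56.8%, against a median of 51.2% over 33469 promoters. Plxnd1 held 37 CG dinucleotides, Unc5b 30, Sema7a 20 and Sema3g 5, and the median was 5. The Sp1 box was found 3 times in Plxnd1, 2 times in Unc5b, 2 times in Sema7a and 1 time in Sema3g, and at least once in 30.5% of all windows. On either strand, TATAAA (12.9% of all windows), the ETS core CCGGAA (12.6%), the AP-1 site TGANTCA (6.34%) and the E-box CACGTG (5.59%) were not among the letters of these windows. The searched motifs were chosen with the results known.

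Among the receptors, Unc5b was lower with sorafenib at both days. At day 14 it was at 52.4, 34.1 and 45.9 CPM in the sorafenib libraries, against 64.7, 79.6 and 67.5 CPM in the water libraries. By day 28 it was at 47.7, 50.2 and 34.6 CPM with sorafenib, against 71.4, 70.6 and 64.0 CPM with water. The groups did not overlap at either day, which holds for 3 members, Unc5b, Sema7a and Plxnd1, all lower with sorafenib (5.36%, against 3.36% of all genes that were lower and 5.80% in either direction). The averaged log2 fold change was -0.67 ± 0.13 (SE), with an edgeR adjusted p of 0.0185.

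Unc5c, the other netrin receptor that fell, had most of its difference at day 28. There it was at 4.26, 5.02 and 2.79 CPM with sorafenib, against 15.2, 13.3 and 9.47 CPM with water, without overlap. The 5.02 CPM is 6 counts in the shallow sorafenib day 28 replicate 3. At day 14 Unc5c was at 10.6, 6.55 and 8.66 CPM with sorafenib, against 11.3, 15.7 and 8.31 CPM with water, with overlap. The averaged log2 fold change was -1.11 ± 0.21 (SE, adjusted p = 0.0185). The difference between the days was -1.32 ± 0.42 on the log2 scale and did not pass the correction (edgeR adjusted p = 0.999), with an unadjusted p of 0.00715.

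Ntn1, a ligand of both receptors, did not follow them. Netrin-1 RNA averaged 117 ± 16.1 CPM with sorafenib and 113 ± 27.4 CPM with water at day 14 (SD, n = 3 each). At day 28 it averaged 113 ± 9.44 CPM with sorafenib and 124 ± 11.03 CPM with water, and the averaged log2 fold change was -0.05 ± 0.13 (SE). Neogenin, Neo1, another netrin receptor, was at -0.05 ± 0.12, and Dcc had 0 to 3 counts per library.

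Plxnd1 was at 193, 149 and 140 CPM in the sorafenib libraries of day 14, against 226, 325 and 194 CPM in the water libraries. At day 28 it was at 128, 166 and 73.0 CPM with sorafenib, against 224, 186 and 204 CPM with water. The groups did not overlap at either day, but at day 14 the highest sorafenib library, at 193.1 CPM, nearly met the lowest water library, at 194.1 CPM. The averaged log2 fold change was -0.70 ± 0.19 (SE, adjusted p = 0.0484), just inside the threshold. Of its ligands, Sema3e was scarce, with a log2 fold change of 0.57 ± 0.34. It had 0 counts in the shallow sorafenib day 28 replicate 3 and 17 to 47 in each other library. Sema3c, which shapes the outflow tract of the mouse heart, was at 40.9, 36.8 and 67.7 CPM with sorafenib at day 28, against 68.0, 82.5 and 102.7 CPM with water, without overlap. Its averaged log2 fold change of -0.55 ± 0.20 did not pass (adjusted p = 0.114). The other plexins lay between -0.21 and 0.29, and 0 of them passed. Plxnb1 was at 0.27 ± 0.11 (adjusted p = 0.169) and Plxna2 at 0.11 ± 0.16.

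Among the ligands, Sema7a had the smallest p of the members. It was at 29.4, 43.7 and 40.0 CPM with sorafenib at day 14, against 46.4, 66.6 and 55.2 CPM with water. By day 28 it was at 36.7, 36.8 and 31.2 CPM with sorafenib, against 63.3, 62.3 and 60.9 CPM with water, and the groups were apart at both days. The averaged log2 fold change was -0.71 ± 0.12 (SE, adjusted p = 0.014). Plxnc1, the plexin that binds semaphorin 7A, was at 14.9 ± 2.71 CPM with sorafenib against 16.3 ± 0.493 CPM with water at day 14, and at 14.0 ± 0.654 against 12.8 ± 1.35 CPM at day 28 (SD, n = 3 each). Its averaged log2 fold change was 0.00 ± 0.12.

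Sema3g was the member that edgeR called higher in the average. At day 14 it was at 34.1, 32.6 and 32.5 CPM with sorafenib, against 21.4, 20.3 and 19.4 CPM with water, wide apart relative to the spread of either group. At day 28 it was at 36.5, 21.7 and 25.7 CPM with sorafenib, against 22.74, 27.44 and 24.02 CPM with water, and the groups overlapped. The averaged log2 fold change was 0.46 ± 0.12 (SE, adjusted p = 0.0442). Of the 7 class 3 semaphorins 1 rose and 0 fell, and 4 lay below 0, with a median of -0.12. The neuropilins Nrp1 and Nrp2, co-receptors of that class, fell, Nrp1 by 0.86 ± 0.16 and Nrp2 by 1.34 ± 0.17 on the log2 scale (adjusted p = 0.0183 and 0.00485). Nrp2, through which semaphorin 3G acts, was at 82.0, 50.7 and 57.4 CPM with sorafenib at day 14, against 125, 177 and 125 CPM with water. At day 28 Nrp2 was at 35.3, 45.2 and 22.4 CPM with sorafenib, against 100, 82.9 and 95.7 CPM with water.

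**Figure D3:**
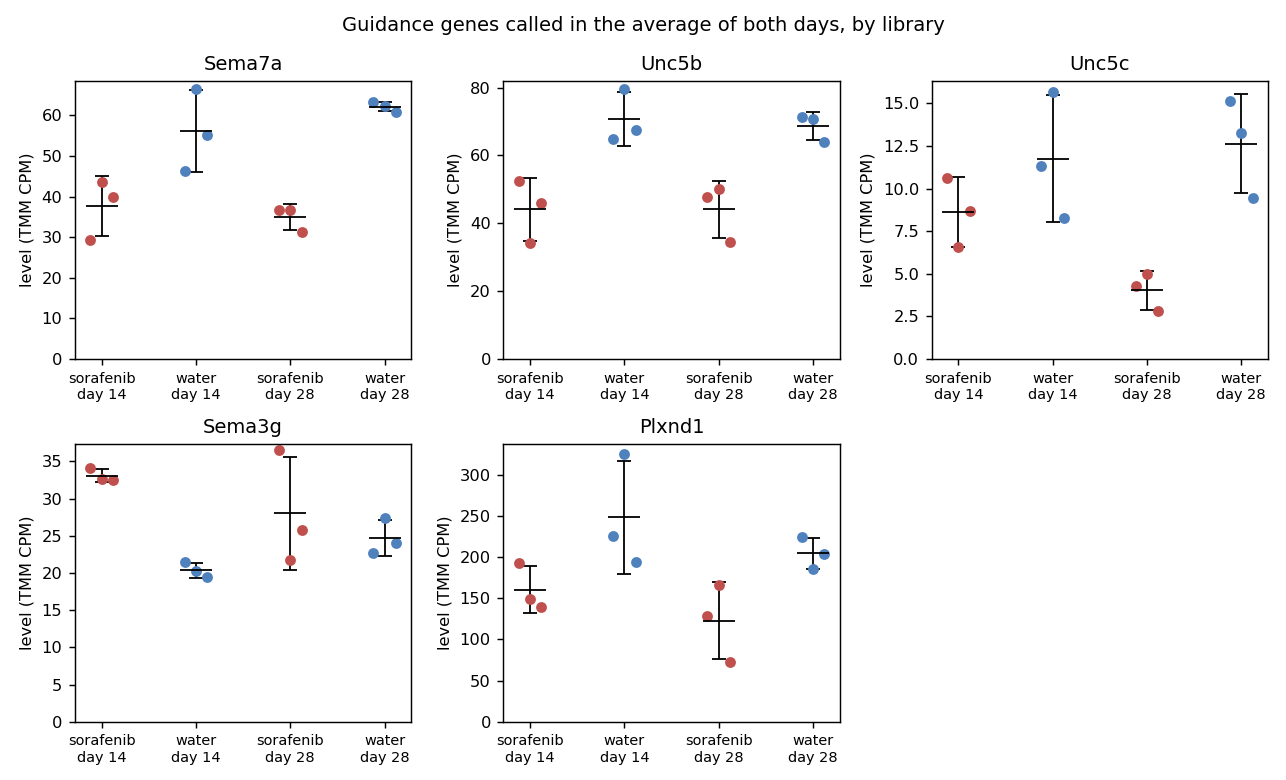
TMM CPM of Sema7a, Unc5b, Unc5c, Sema3g and Plxnd1 in each library, with sorafenib and water side by side for each day, and the mean and SD of 3 libraries in black. Sema7a, Unc5b and Plxnd1 are lower in every sorafenib library than in every water library of the same day, Unc5c at day 28 and Sema3g (higher) at day 14.

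The calls depended on single libraries. Without water day 14 replicate 3, which had the highest level of all 4 falling genes among the water libraries of that day, 0 members were called, and 60 of all genes. Without sorafenib day 28 replicate 2, again 0 members were called, and 35 of all genes. Without the shallow sorafenib day 28 replicate 3 the same 5 genes were called. Sema7a, Unc5b and Unc5c passed in 16 of 18 alternatives, all but those omissions, where their adjusted p was at most 0.0661. Sema3g passed in 8 of 18 (adjusted p 0.00588 to 0.146) and Plxnd1 in 6 of 18 (0.0145 to 0.142), and their directions held in all 18.

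Within day 14 alone, 0 of 56 members passed edgeR's test, as did 0 of all 17406 genes tested (0.00%). An unadjusted p under 0.05 was found for 13 members (23.2%, against 14.0% of all genes). DESeq2 called 6 of the 56 members and 438 of all 17406 genes. The members were Sema3b, Sema3g and Sema6b, higher, and Efnb2, Epha3 and Unc5b, lower. Groups did not overlap for 15 members (26.8%, against 21.1% of all genes). Sema6b, a transmembrane ligand of plexin A4, was at 31.5, 34.7 and 28.8 CPM with sorafenib, against 14.5, 11.7 and 21.4 CPM with water. Its log2 fold change was 1.005 ± 0.21 (SE, edgeR adjusted p = 0.134). At day 28 Sema6b averaged 38.1 ± 10.3 CPM with sorafenib and 31.1 ± 12.4 CPM with water (SD, n = 3 each), so those groups overlapped. Its log2 fold change in the average of both days was 0.66 ± 0.21 (SE, edgeR adjusted p = 0.0826), and DESeq2 called it there.

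Sema3b, a secreted semaphorin that acts through neuropilins, was at 21.9, 22.1 and 21.3 CPM with sorafenib at day 14, against 14.3, 14.6 and 11.4 CPM with water. At day 28 its sorafenib libraries spread from 11.6 to 27.6 CPM, around the 15.5 to 20.7 CPM of the water libraries. Efnb2, the arterial ephrin, was at 53.02, 45.48 and 49.61 CPM with sorafenib at day 14, against 68.3, 67.5 and 71.9 CPM with water. At day 28 it ranged from 33.3 to 70.2 CPM with sorafenib and from 54.4 to 60.2 CPM with water. Its venous receptor Ephb4 averaged 129 ± 4.55 CPM with sorafenib and 132 ± 12.3 CPM with water at day 14, and 144 ± 25.7 and 128 ± 16.2 CPM at day 28 (SD, n = 3 each). The averaged log2 fold change of Ephb4 was 0.06 ± 0.11.

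Epha3, an ephrin-A receptor that acts in the endocardial cushions of the mouse embryo, had the largest difference of the Eph receptors at day 14. It was at 15.7, 6.27 and 7.09 CPM with sorafenib, against 29.3, 29.6 and 23.9 CPM with water (log2 fold change -1.499 ± 0.32 (SE), edgeR adjusted p = 0.134). Without sorafenib day 14 replicate 5, the highest of its group, it passed at an adjusted p of 0.0192. At day 28 Epha3 was at 2.07, 13.4 and 17.1 CPM with sorafenib, against 4.96, 7.44 and 29.2 CPM with water. Both groups of that day thus varied several-fold between libraries and overlapped. Robo3, a receptor of the Robo family, had 30, 23 and 21 counts with sorafenib at day 14, against 8, 9 and 17 counts with water, and its exons overlap 3 other genes. Its log2 fold change was 1.29 ± 0.44 (adjusted p = 0.251).

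Within day 28 alone, again 0 of 56 members passed edgeR's test, as did 0 of all 17021 genes tested (0.00%). An unadjusted p under 0.05 was found for 10 members (17.9%, against 14.9% of all genes). DESeq2 called 2 of the 56 members, Sema7a and Unc5c, and 279 of all 17021 genes. Groups did not overlap for 12 members (21.4%, against 22.0% of all genes), 10 of them lower with sorafenib (17.9%, against 11.9%). Of these, Ephb1 and Ephb6 had 0 counts in the shallow sorafenib replicate 3. Epha4, an Eph kinase that binds ephrins of both subclasses, was at 8.23, 2.51 and 5.85 CPM with sorafenib, against 19.6, 10.5 and 14.5 CPM with water. The 2.51 CPM is 3 counts in the shallow sorafenib replicate 3. The log2 fold change of Epha4 was -1.20 ± 0.34 (SE, edgeR adjusted p = 0.212). At day 14 Epha4 averaged 15.1 ± 1.496 CPM with sorafenib and 16.7 ± 4.33 CPM with water (SD, n = 3 each). Sema3d, a class 3 semaphorin that patterns veins in the mouse, was at 10.13, 10.03 and 11.1 CPM with sorafenib at day 28, against 19.3, 24.5 and 14.7 CPM with water (log2 fold change -0.86 ± 0.24, adjusted p = 0.2005).

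On the higher side at day 28, Sema4b, a transmembrane semaphorin, was at 28.04, 35.95 and 25.46 CPM with sorafenib, against 16.45, 18.43 and 25.25 CPM with water, just without overlap (log2 fold change 0.57 ± 0.22 (SE), adjusted p = 0.295). Efna4, a lipid-anchored ephrin, had 20, 1 and 10 counts with sorafenib and 7, 8 and 2 counts with water, so its fold rests on few counts. The 1 count is in the shallow sorafenib replicate 3. In CPM its groups did not overlap, at 1.152, 0.836 and 0.665 with sorafenib against 0.344, 0.394 and 0.095 with water. Sema6c and Epha1 had log2 fold changes of 0.58 ± 0.29 and 0.78 ± 0.47, and their groups overlapped.

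**Figure D4:**
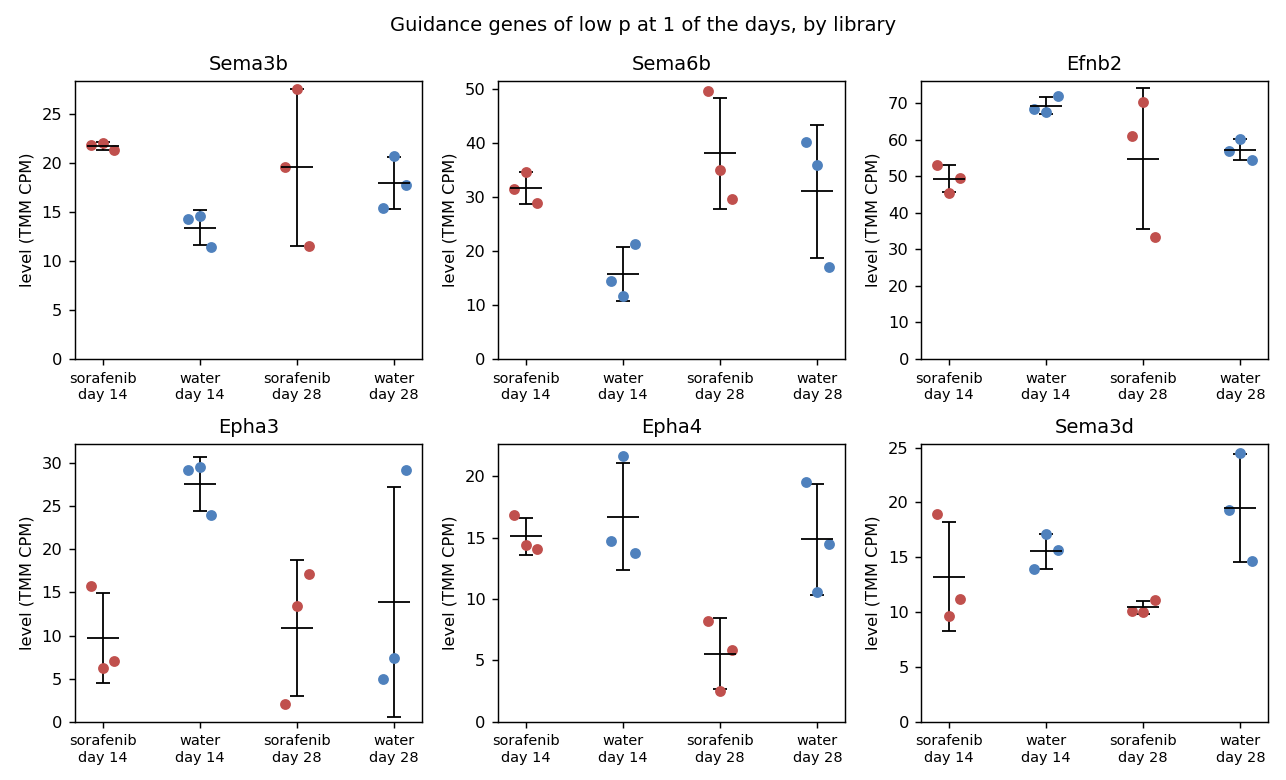
TMM CPM of Sema3b, Sema6b, Efnb2, Epha3, Epha4 and Sema3d in each library, with sorafenib and water side by side for each day, and the mean and SD of 3 libraries in black. The first 4 separate the groups at day 14 and overlap at day 28, and Epha4 and Sema3d separate them at day 28 and overlap at day 14. These genes were picked for a low unadjusted p at day 14 or at day 28. In the test of the difference between days 0 members passed, but with simulated counts that test detected few 2-fold differences.

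The difference of the sorafenib effect between the days was tested for every member. Of 56, 0 passed, as did 0 of all 18174 genes by edgeR (0.00%), and by DESeq2 0 members passed of 9 genes in all. An unadjusted p under 0.05 was found for 5 members (8.93%, against 4.42% of all genes). Unc5c and Epha4 were lower at day 28 relative to day 14, by -1.32 ± 0.42 and -1.06 ± 0.40 (SE) on the log2 scale, and Robo1 by -0.53 ± 0.24. Efna4 and Sema6c lay on the other side at 2.67 ± 1.03 and 0.95 ± 0.40. Cell type markers also shifted in this comparison, with 0 of them passing. All 8 pericyte and smooth muscle markers were below 0 (median -0.535), as were 7 of 8 fibroblast markers (median -0.44) and 8 of 8 cardiomyocyte markers (median -0.27). The 7 tested markers of Schwann cells and neurons were also below 0 (median -0.29). Below 0 were 5 of 8 myeloid markers (median -0.04) and 1 of 3 tested lymphocyte markers (median 0.57). Of 12 endothelial markers 8 were below 0 (median -0.21), and all 5 mesothelial markers were above 0 (median 4.97, 4 with an unadjusted p under 0.05). Over all genes 9476 of 18174 were below 0. The part of these cell types in the day-specific values was not tested. The pattern of effects seen at 1 day was thus not shown to differ from that of the other day for any single member. Nor was it shown to be alike, because this test had little power. With simulated counts it detected a planted 2-fold difference for 3.41% of the genes that carried it, and a 1.5-fold difference for 0.0%. Across the 56 members the effects of the days, which share no library, had the same sign for 38 (67.9%, against 70.0% of the 16641 genes tested at both), and Pearson's r was 0.316, against 0.457 over those genes. Genes are not independent replicates, so these values describe the data only.

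**Figure D5:**
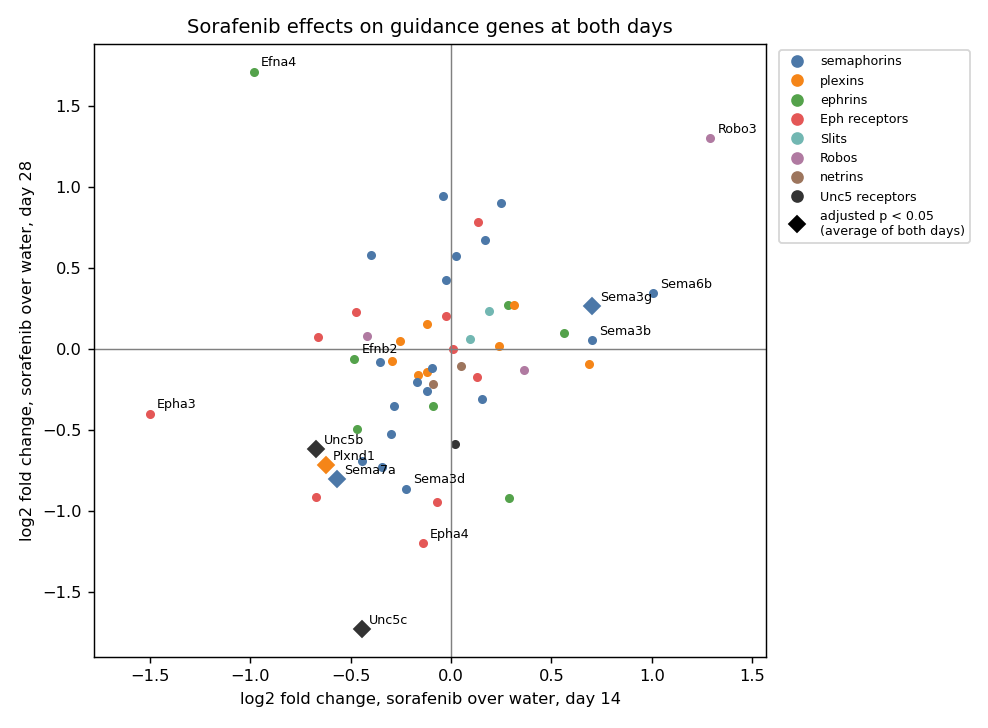
Log2 fold change of sorafenib over water at day 14 (horizontal) and at day 28 (vertical) for the 56 tested guidance genes, coloured by class, with diamonds for the 5 called in the average. Unc5b, Plxnd1 and Sema7a lie close together on the lower left, between -0.81 and -0.57 on both axes, while Unc5c lies lower at day 28 (-1.73) than at day 14 (-0.44).

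Water hearts of day 28 were also set against those of day 14. Of 56 members 0 passed between day 28 and day 14, against 8.51% of all 18174 genes, and an unadjusted p under 0.05 was found for 6 (10.7%, against 24.5%). DESeq2 called 2 of the 56 members, Sema6b and Slit3, and 2332 of all 18174 genes. Groups did not overlap for 11 members (19.6%, against 33.8% of all genes). Slit3, a secreted ligand of Robos, was at 22.8, 18.3 and 20.7 CPM in water hearts of day 28, against 10.28, 12.98 and 11.78 CPM in those of day 14 (log2 fold change 0.82 ± 0.25 (SE), edgeR adjusted p = 0.0563). Its group ranges were thus apart. Sema6b was at 40.22, 35.97 and 17.0 CPM at day 28, against 14.5, 11.7 and 21.4 CPM at day 14 (0.97 ± 0.30, adjusted p = 0.0568). Ntn4, a netrin of basement membranes, was at 39.2, 52.0 and 65.6 CPM at day 28, against 32.0, 37.3 and 39.1 CPM at day 14. On the lower side Sema6a was at 63.4, 61.4 and 72.2 CPM at day 28, against 90.8, 110.8 and 75.3 CPM at day 14. The days were counted in separate tables, so age and processing cannot be told apart. Mesothelial markers moved with the same days: 4 of 5 fell, with a summed level of 15.2 to 33.6 CPM in water hearts of day 28 and 42.9 to 77.0 CPM in those of day 14. Their part in these values was not tested.

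Of other genes of these pathways, listed with earlier results of these data known, 20 of 24 co-receptors and further ligands were tested in the average. In that list 0 rose and 6 fell: Nrp1, Nrp2, the VEGF receptor Kdr (-0.73 ± 0.15 (SE)), Dag1, Adgrl2 and Cd72. Over all genes 2.0% rose and 2.41% fell in this comparison, against which this count and those of the lists that follow are read. Dag1, dystroglycan, which binds laminin and Slits, was at -0.58 ± 0.14. The latrophilin Adgrl2, of a family of adhesion receptors that bind Flrt proteins, was at -0.35 ± 0.09. Cd72, a receptor of semaphorin 4D on lymphocytes, had 0 to 6 counts per library with sorafenib and 12 to 30 with water, and its exons overlap those of Tesk1. Of 7 lymphocyte markers 3 had enough counts to test and 0 passed (median -0.10). Among them the B cell gene Ms4a1 had 0 to 2 counts per library with sorafenib and 3 to 18 with water (-2.51 ± 0.70, adjusted p = 0.0557), while the T cell genes Cd3e and Cd3g were at -0.10 ± 0.42 and 0.33 ± 0.53. The part of lymphocytes in the value of Cd72 was not tested. The median of the co-receptors and further ligands was -0.24. Of 43 cytoplasmic effectors tested 1 fell, the actin-severing protein Cfl1 (-0.45 ± 0.11), whose exons overlap those of Snx32, and 0 rose (median -0.10). Of 8 proteases that cut guidance proteins 0 passed (median -0.29).

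Markers of the cell types that make these proteins were read beside the members. Of 12 endothelial markers 3 fell (Emcn, Cd34 and Kdr) and 0 rose in the average, and 8 were below 0, with a median of -0.16. Cldn5 and Egfl7 were among those above 0, at 0.25 ± 0.25 and 0.12 ± 0.21 (SE), without passing. None of the 12 markers was without counts in any group. Their summed level was 1582 to 2019 CPM with sorafenib and 1722 to 2109 CPM with water at day 14, and 1556 to 1849 CPM with sorafenib and 1730 to 1897 CPM with water at day 28. The ranges overlapped at both days. Of 8 fibroblast markers 1 fell (Lum), of 8 markers of pericytes and smooth muscle 1 fell (Kcnj8, at -0.63 ± 0.12 (SE)), and of 8 myeloid markers 2 fell (C1qa and C1qb), with medians of -0.22, -0.19 and -0.66. The smooth muscle genes of that list lay on the other side without passing, Myh11 at 0.48 ± 0.19, Acta2 at 0.45 ± 0.20 and Tagln at 0.36 ± 0.19 (edgeR adjusted p = 0.153, 0.188 and 0.2595). At day 14 alone these were at 0.83 ± 0.19, 0.76 ± 0.21 and 0.64 ± 0.22 (adjusted p = 0.1496, 0.188 and 0.2585). Of 5 mesothelial markers and 8 cardiomyocyte markers 0 passed in the average (medians 0.06 and -0.03). Markers of Schwann cells and neurons summed to 30.99 to 43.55 CPM with sorafenib and 22.04 to 29.36 CPM with water at day 14, without overlap. At day 28 they summed to 20.9 to 28.38 CPM with sorafenib and 23.73 to 26.52 CPM with water, with overlap. Th was at 0 in both sorafenib groups. Of the 7 tested 0 passed in the average and 4 were below 0 (median -0.05). Cdh19 lay above 0 at 0.92 ± 0.25 (SE, edgeR adjusted p = 0.0543), and Dbh below it at -0.76 ± 0.32 (adjusted p = 0.1635). The part of these cell types in the differences of Sema7a, Unc5b, Unc5c, Plxnd1 and Sema3g was not tested.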

How the data were processed

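The authors deposited raw read counts per gene, made with featureCounts 2.0.1 in paired mode, with no strand setting, on a RefSeq annotation of mRatBN7.2, per the file headers. The aligner was STAR (version not given), per the submitters' processing notes. The kit used is a stranded one, per the labels' protocols. Each day has its own table, and 2 count columns that match no sample were not used. Chromosomes are numbered by the rank of their sequence in the assembly.

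The tests used edgeR 4.0.16 under R 4.3.3 (filterByExpr, TMM, robust quasi-likelihood test, Benjamini-Hochberg adjustment over all genes tested, threshold 0.05). Days were fitted separately, and the average, the difference and the water groups in a fit of all 4 groups. Each SE was obtained as the size of the log2 fold change over the square root of F. Printed CPM are scaled by TMM. DESeq2 1.42.0 was an alternative. Code was tested on simulated counts. There, day 14 and day 28 alone called 6.195% and 6.14% of genes changed 1.5-fold, and the average called 28.57%. The members, gene lists and comparisons were chosen with earlier results of these data known. Members were named if called in any comparison, if among the 4 of smallest p per direction in 1, if highest per length in their family, or as partners of those called. No 2 replicates agreed within sampling noise (smallest chi-square per gene 7.5).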

Additional observations from a re-analysis of the deposited data

How the results depend on the processing

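Alternatives were DESeq2, RLE size factors, no filter and a filter of 1 CPM in 3 libraries, no robust dispersion, subtraction of a per-library lowess trend on gene length (span 0.3), a fit of all 4 groups for the days, and each library left out. Among the named genes recomputed, no direction turned in any of them. For the average the count of 5 members was 7 by DESeq2, which added Epha4 and Sema6b, and 4 or 5 under the other settings. With 1 library left out it was 0 to 7. Of all genes 801 were called, 1836 by DESeq2 and 35 to 1562 with 1 library left out. At day 14 the count of 0 became 6 by DESeq2 and 2 without a filter (Sema3g and Sema6b), and was 0 to 1 with 1 library left out (Epha3). All-gene counts of 0 became 438 by DESeq2 and 87 without a filter. At day 28 it became 2 by DESeq2, 1 without a filter and 1 in the fit of all 4 groups (Unc5c both times), and was 0 with any library left out. With the title number as a replicate block at day 28 it was 2, Sema7a and Unc5c, and 108 of all genes. The numbers are not shown to pair the libraries: deviations of same-numbered libraries correlated at 0.104, 0.00808 and 0.194, and each sorafenib library did not in every case correlate best with its own number. Day 14 shares only 1 number between its groups. For the difference the count was 0 throughout. For the water groups the count of 0 became 2 by DESeq2, 1 without a filter and 2 with the length trend removed, and was 0 to 2 with 1 library left out (558 to 1812 of all genes, against 1546). Where no count over all genes stands beside a count of members, that count is not read as particular to the guidance genes. The cause of these shifts was not tested. Depth limits sorafenib day 28 replicate 3, where members under 1 CPM rest on single counts. Higher values there can also rest on few counts, 3 for Epha4 and 6 for Unc5c.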
